A study of Homo sapiens with 6 samples.

Results

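The transcripts examined encode the regulatory partners of the sodium pump: the beta subunits ATP1B1, ATP1B2 and ATP1B3 and the FXYD proteins FXYD2, FXYD3, FXYD5 and FXYD6. These 7 genes of 60624 in the count table were taken by symbol as members of the pump and FXYD families. FXYD2 and FXYD6 were chosen by their large drop in counts between parental and RAVER1-deleted cells, so that difference is described without a test. PolyA RNA was sequenced from A549, an established human lung adenocarcinoma line, in 3 parental (WT) libraries and 3 libraries of cells with a CRISPR/Cas9 deletion of RAVER1. RAVER1 binds RNA and works with the splicing regulator PTBP1. No further treatment is given in the labels for either group. Each condition is described as having biological replicates. All 3 knockout libraries carry the name KO2, which the labels do not describe as 1 clone or several, so p-values reflect library-to-library spread and not that between separate knockout lines.

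The sodium pump, or Na,K-ATPase, exports sodium from the cell and imports potassium, and so drives most sodium-coupled transport across epithelia. Its alpha subunit binds the ions and splits ATP, while the glycosylated beta subunit is needed for folding, delivery to the plasma membrane and, in epithelia, adhesion between neighbouring cells. FXYD proteins are small single-span membrane proteins that bind the pump and tune its affinity for ions in a tissue-specific way. Lung epithelia use the pump together with apical sodium channels to clear fluid from the airspace.

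FXYD proteins are named after a motif of phenylalanine, any residue, tyrosine and aspartate. The coding bases around it are shown because they mark what the 4 FXYD members share, with the 12 bases of the motif in capitals. They were read 5′ to 3′ from GENCODE release 29 transcripts (hg38).
FXYD2: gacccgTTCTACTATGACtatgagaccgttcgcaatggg
FXYD6: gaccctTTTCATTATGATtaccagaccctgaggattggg
FXYD5: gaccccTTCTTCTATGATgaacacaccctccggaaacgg
FXYD3: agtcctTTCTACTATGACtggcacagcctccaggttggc
FXYD2 and FXYD6 had the same base at 27 of these 39 positions, as had FXYD2 and FXYD5. FXYD3 matched each of the other members at 23 of 39. The 2 genes with the low knockout counts therefore differ from each other within the motif window at 12 bases.

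In RAVER1-deleted cells FXYD2 and FXYD6 were down to 1 to 32 reads per library, ATP1B1 was moderately lower, and FXYD5 and ATP1B3 overlapped with the parental libraries. Levels are given in CPM, read counts scaled to the size of each library. FXYD2 stood at 2.32% and FXYD6 at 2.60% of the parental level in the edgeR fit, and ATP1B1 at 76.1%. FXYD3 had no read in any library, and ATP1B2 had 4 to 9 reads per library. Of the 7 members, 5 passed the filter on low counts. FXYD6 passed it only through the parental libraries, since each of its knockout values lay under the filter limit of 0.301 CPM. In bulk RNA, fewer cells with a transcript and less of it per cell cannot be told apart.

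**Figure D1:**
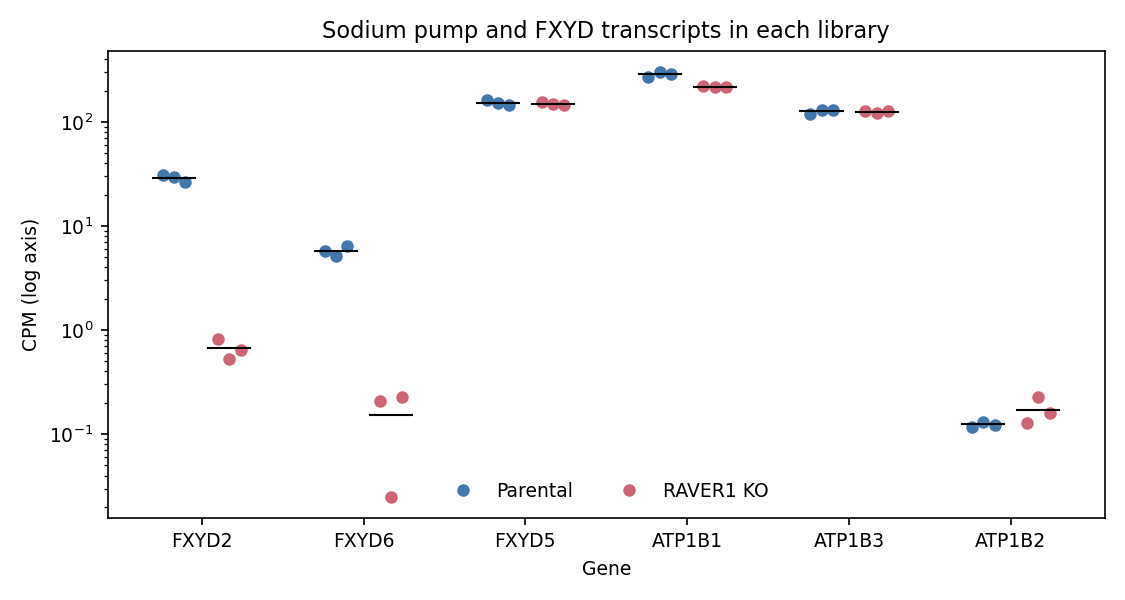
CPM on a log axis for 6 members in each of 3 parental (blue) and 3 RAVER1 knockout (red) libraries, with the group mean as a black line; FXYD3, at 0 in every library, cannot be drawn. FXYD2 and FXYD6 separate widely (28.9 against 0.667 CPM and 5.76 against 0.153 CPM), ATP1B1 by less, and the points of FXYD5, ATP1B3 and ATP1B2 overlap between groups.

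RAVER1 itself checks the labels. It stood at 65.7 to 73.2 CPM in the parental libraries and at 2.54 to 2.84 CPM in the knockout libraries, a log2 fold change of -4.67. Total counts ran from 29811747 to 39910127 per library. Over the whole table edgeR tested 16652 genes and called 3543 of them (21.3%) up and 3343 (20.1%) down on deletion, and the median log2 fold change of all tested genes was 0.00188. The groups did not overlap in CPM for 50.2% of tested genes.

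ATP1B1 encodes the main beta subunit of epithelia (ENSG00000143153, hg38 chromosome 1, 169105697 to 169132722, plus strand). It stood at 271, 302 and 288 CPM in parental replicates 1, 2 and 3 and at 221, 216 and 217 CPM in the knockout replicates. Every knockout library lay below every parental library. ATP1B1 fell by 0.39 on the log2 scale (SE 0.043, 95% interval -0.49 to -0.30), with an edgeR adjusted p of 5.56e-07. Over 13 alternative settings the log2 fold change ran from -0.43 to -0.36 and the adjusted p from 3.63e-16 to 6.57e-06. ATP1B1 was the only one of the 3 members tested apart from FXYD2 and FXYD6 to pass the threshold, beside 20.1% of all tested genes that were lower. Of its exon bases, 6.48% lie opposite exons of NME7, which stood at 17.9 and 16.7 CPM and was not past the threshold (-0.09, edgeR adjusted p 0.365).

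ATP1B3 encodes a broadly expressed beta subunit, also known as CD298 (ENSG00000069849, chromosome 3, 141876124 to 141926514, plus strand). Its parental libraries held 119, 130 and 129 CPM and its knockout libraries 127, 123 and 126 CPM. The groups overlapped. The log2 fold change was -0.01 (SE 0.045, 95% interval -0.11 to 0.08, edgeR adjusted p 0.848), so a change as large as that of ATP1B1 lies outside the interval. ATP1B2, the glial beta subunit known as AMOG (ENSG00000129244, chromosome 17, 7646627 to 7657768, plus strand), had 4 reads in every parental library and 5, 9 and 5 reads in knockout replicates 1, 2 and 3. At 0.124 and 0.172 CPM it was under the filter, and with no filter its log2 fold change was 0.48 (edgeR adjusted p 0.617).

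Levels of different genes were compared as CPM per kilobase of the deposited gene length. On that scale ATP1B1 held 100 ± 5.26 in parental and 76.2 ± 0.945 in knockout cells, and ATP1B3 held 48.3 ± 2.32 and 47.8 ± 0.823 (SD, n = 3 each). Of beta subunit reads per length, ATP1B1 made up 67.5%, 67.9% and 67.1% in parental replicates 1, 2 and 3. The knockout replicates gave 61.4%, 61.6% and 61.2%. The groups did not overlap, with a difference of -6.05 percentage points and an exact two-sided permutation p of 0.1, the smallest that 3 against 3 libraries allow. The ratio of ATP1B1 to ATP1B3 was 2.08 ± 0.0368 in parental and 1.59 ± 0.0158 in knockout cells (SD, n = 3 each). These are ratios of RNA reads and carry no information on assembled pumps.

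**Figure D2:**
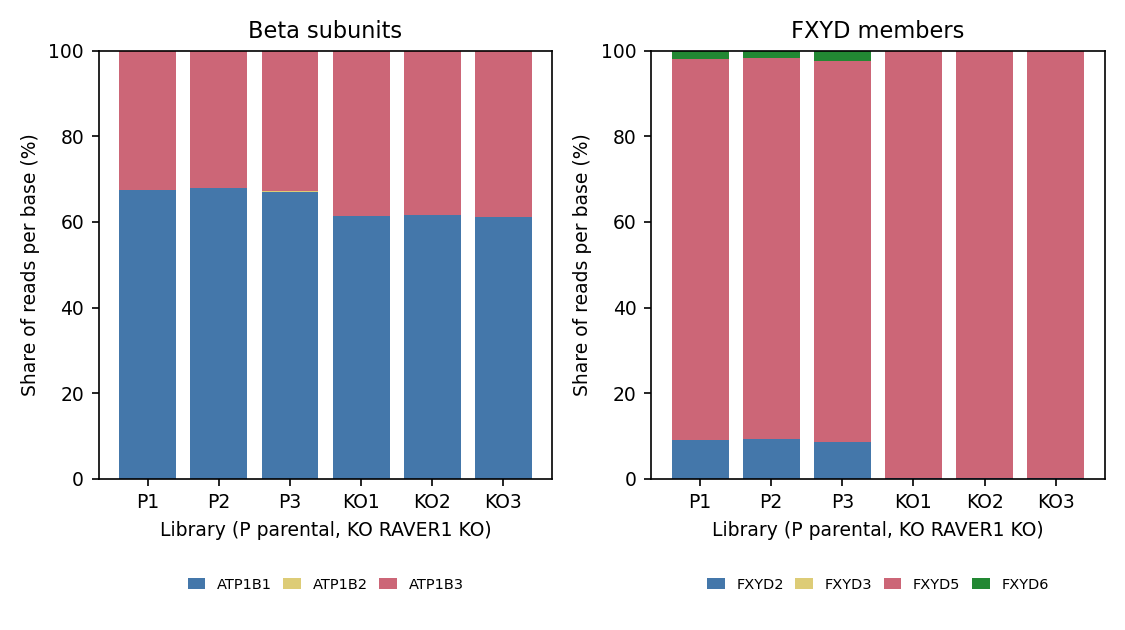
Stacked bars give the share of reads per base of gene length (%) among the 3 beta subunits (left) and the 4 FXYD members (right), one bar per library, with P for parental and KO for RAVER1 knockout. ATP1B1 covers 67.1% to 67.9% of the beta bars in parental and 61.2% to 61.6% in knockout libraries, and FXYD5 covers 89.0% to 89.1% and 99.6% to 99.8% of the FXYD bars. The larger FXYD5 share follows from the fall for which FXYD2 and FXYD6 were chosen. Reads in exons that FXYD2 and FXYD6 share with the gene FXYD6-FXYD2 may be missing from these shares.

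FXYD5, also called dysadherin, is a pump partner of epithelia and tumours that is known to weaken E-cadherin adhesion (ENSG00000089327, chromosome 19, 35154730 to 35169883, plus strand). It was the most abundant FXYD member, at 163, 151 and 147 CPM in the parental and 156, 148 and 144 CPM in the knockout libraries. These ranges overlap. Its log2 fold change was -0.04 (SE 0.048, 95% interval -0.14 to 0.06, edgeR adjusted p 0.58). Per kilobase FXYD5 stood at 51.4 ± 2.8 and 50.1 ± 2.04, a level near that of ATP1B3.

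FXYD2 is the gamma subunit of the pump, best known from the kidney tubule, where it lowers the affinity for sodium (ENSG00000137731, chromosome 11, 117800844 to 117828698, minus strand). It had 1055, 891 and 866 reads in parental replicates 1, 2 and 3, or 30.8, 29.3 and 26.6 CPM. The knockout libraries held 32, 21 and 20 reads, or 0.828, 0.528 and 0.644 CPM. The lowest parental library was thus far above the highest knockout library, a separation for which the gene was chosen. The log2 fold change was -5.43 (SE 0.12), the 15th lowest of 16652 tested genes, and lay between -5.63 and -5.27 over 14 alternative settings.

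FXYD6, or phosphohippolin, is a FXYD protein best known from the brain (ENSG00000137726, chromosome 11, 117836976 to 117877486, minus strand). Its parental libraries held 196, 157 and 208 reads, or 5.72, 5.17 and 6.40 CPM. In the knockout libraries 8, 1 and 7 reads remained, or 0.207, 0.0251 and 0.225 CPM. Knockout replicate 2, with its single read, was the lowest. The log2 fold change was -5.27 (SE 0.27), the 18th lowest of all tested genes, with a range of -5.62 to -4.72 over 14 alternative settings. Before the deletion FXYD6 was at 1.16 CPM per kilobase, against 5.16 for FXYD2 and 51.4 for FXYD5. FXYD2 and FXYD6 share exons with the gene FXYD6-FXYD2, described below, and reads there may be missing from their counts. FXYD5 shares no exon base with another annotated gene, so these levels may not be on equal terms.

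FXYD3, known as Mat-8 and as a transcript of several carcinomas (ENSG00000089356, chromosome 19, 35115879 to 35124324, plus strand), was listed at 0 in all 6 libraries. With 3 counts as the limit that a count of 0 allows, this limits it to 0.0752 to 0.101 CPM per library for counting error only. Of its exon bases, 40.7% are shared with other annotated genes on the same strand, and reads there may not have been counted. The rest of the families given here was also at or near 0. FXYD1 and the muscle beta-like gene ATP1B4 were listed at 0 in all libraries, FXYD4 had 3 reads in 1 parental library, and FXYD7 had 0 to 5 reads per library.

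The members sit on 5 chromosomes, and FXYD2 and FXYD6 are neighbours, 8277 bases apart and read in the same direction. A readthrough gene, FXYD6-FXYD2, joins them. All 782 of its exon bases are shared, 392 with FXYD2 and 390 with FXYD6, and it was listed at 0 in every library. Across the table, 571 of 645 genes whose every exon base is shared with same-strand genes, at least 1 of them with 1000 or more reads, were at 0 as well. The 0 of FXYD6-FXYD2 is therefore no measure of its transcript. The readthrough exons cover 79.7% of the coding bases of FXYD2 and 83.1% of those of FXYD6, and reads there may be missing from the counts of both genes in either group. With all 3 rows summed into 1, the locus had a log2 fold change of -5.41. As the readthrough row was at 0, this sum holds only the counted reads of FXYD2 and FXYD6. It cannot recover reads that were not counted.

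**Figure D3:**
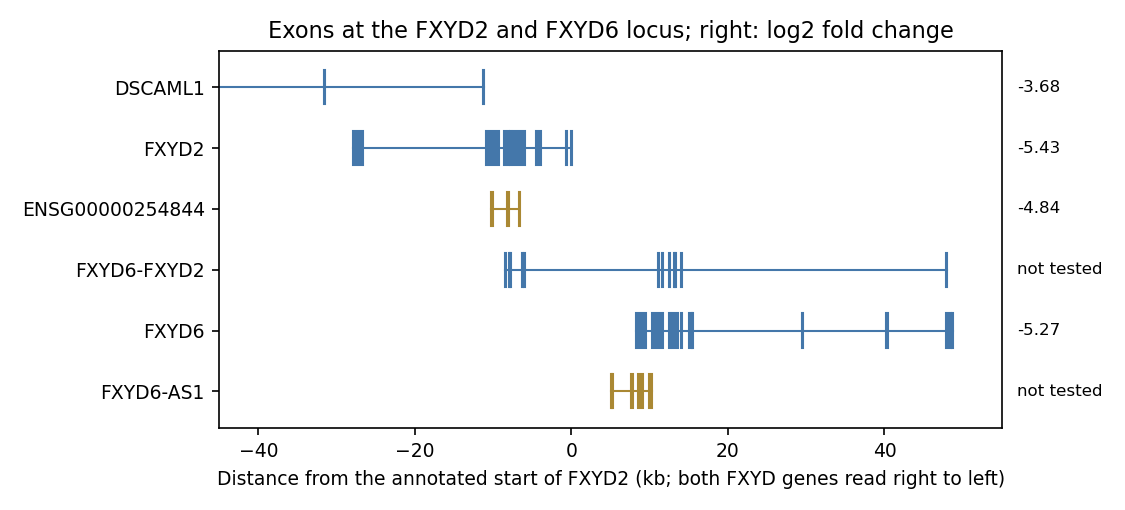
Exon map of the FXYD2 and FXYD6 locus, with distance from the annotated start of FXYD2 in kb on the x axis, exons as blocks (blue for the minus, brown for the plus strand) and each gene's log2 fold change at the right. The exons of FXYD6-FXYD2 lie inside those of FXYD2 and FXYD6, and the genes that passed the low-count filter had values of -5.43, -5.27, -4.84 and -3.68.

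Apart from the pair itself, 2 genes within 100 kb passed the filter, DSCAML1 and ENSG00000254844. The body of DSCAML1, a neuronal adhesion molecule of the DSCAM family, reaches into that of FXYD2 on the same strand, with no exon base in common. It had 130, 132 and 129 reads in parental and 12, 12 and 10 in knockout libraries, a log2 fold change of -3.68 (SE 0.19). Its knockout mean of 0.311 CPM lay close to the filter limit of 0.301 CPM, so no test of DSCAML1 is given. The lncRNA gene ENSG00000254844, on the opposite strand, shares 77.7% of its exon bases with FXYD2. Its reads were 61, 42 and 34 in parental and 3, 2 and 0 in knockout libraries. The log2 fold change was -4.84, or -5.47 without knockout replicate 1. At a mean of 0.0426 CPM in knockout cells ENSG00000254844, like FXYD6, passed the filter only through the parental libraries, and no test of it is given. FXYD6-AS1, opposite FXYD6, had 10, 7 and 7 reads in parental and 0 in each knockout library, too few to test. Reads of genes on opposite strands can be kept apart only if the counting used the strand, and its strand setting is not given in the sources used here. Of 385 genes whose exon bases all lie opposite other genes, at least 1 of them with 1000 or more reads, 81 were at 0, against 571 of 645 for the same strand.

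Around the other members the neighbours within 100 kb were mixed. FXYD5 and FXYD3 on chromosome 19 lie 30405 bases apart. Near FXYD5 the tight junction gene LSR fell (-0.96, edgeR adjusted p 1.71e-08), and USF2 (-0.04) was not past the threshold. Near FXYD3, GRAMD1A was at -0.11 (edgeR adjusted p 0.0843). GRAMD1A passed with upper-quartile scaling (-0.14, edgeR adjusted p 0.03), with a replicate block (-0.11, edgeR adjusted p 0.00368) and without knockout replicate 1 (-0.16, edgeR adjusted p 0.00178). Near ATP1B3 the transcription factor gene TFDP2 rose by 0.23 (edgeR adjusted p 0.00347). Of 11 tested neighbours of ATP1B2 given here, 1 was higher and 4 lower, beside 41.4% of all tested genes called in either direction. SAT2 (-0.44), EFNB3 (-0.59), TNFSF13 (-1.37) and TNFSF12 (-0.26) were the lower ones. TNFSF13 passed the filter only through the parental libraries, and TNFSF12 was not called without parental replicate 1 (-0.23) or knockout replicate 2 (-0.22). Readthrough genes on the same strand overlap the bodies of TNFSF12 and TNFSF13 (TNFSF12-TNFSF13) and of the translation factor gene EIF4A1 (SENP3-EIF4A1). Their shared exon bases were not examined, and reads there may not have been counted. EIF4A1 was listed with only 43, 41 and 59 reads in the parental replicates and 93, 70 and 70 after deletion. Mean levels were 1.47 CPM before and 2.14 CPM after it. On these counted reads EIF4A1 was higher by 0.53 (edgeR adjusted p 0.0289). It was not called by DESeq2 (adjusted p 0.0788), nor by edgeR without parental replicate 1 (0.42), parental replicate 2 (0.48), knockout replicate 1 (0.43) or knockout replicate 3 (0.50).

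Promoter sequence was given for 6 of the 7 members, and not for FXYD2. The bases before 2 annotated starts are shown because they belong to FXYD6, which like FXYD2 had low knockout counts, and to the beta subunit that fell. Both run 5′ to 3′ in the direction of the gene over the 250 bases before the start, from RefSeq (GRCh38.p14), with GC boxes (GGGCGG or its reverse complement) in capitals. The FXYD6 stretch is chr11:117876659-117876908 on the minus strand, and the outermost GENCODE start of FXYD6-FXYD2, 117876667, lies inside it. The ATP1B1 stretch is chr1:169106440-169106689 on the plus strand.
FXYD6: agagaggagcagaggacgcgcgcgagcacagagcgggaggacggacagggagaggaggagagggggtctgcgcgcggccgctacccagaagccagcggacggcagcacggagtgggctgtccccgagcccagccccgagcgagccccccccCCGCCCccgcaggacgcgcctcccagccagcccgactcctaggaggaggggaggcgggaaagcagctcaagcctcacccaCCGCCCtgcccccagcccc
ATP1B1: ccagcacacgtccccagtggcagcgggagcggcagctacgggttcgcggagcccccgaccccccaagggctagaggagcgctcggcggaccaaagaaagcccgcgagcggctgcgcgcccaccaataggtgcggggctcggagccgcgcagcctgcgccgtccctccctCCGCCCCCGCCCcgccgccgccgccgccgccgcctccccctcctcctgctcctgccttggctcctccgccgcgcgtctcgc
Both were rich in G and C, with 74.8% for FXYD6 and 77.6% for ATP1B1, against a median of 58.0% over 35116 promoters of this length. Each held 2 GC boxes, and 42.6% of all promoters held at least 1. ATP1B3, which did not pass the threshold, had 77.2% G and C and 4 GC boxes. A second FXYD6 start had 52.0% and none. The E-box CAGGTG that SNAI and ZEB repressors bind (either strand, 17.5% of promoters) was in neither printed stretch.

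Genes with profiles most like those of FXYD2 and FXYD6 were sought among all tested genes, by the distance between log2 CPM values centred on each gene's mean of the 6 libraries. For FXYD2 these were the uroplakin UPK1B (distance 0.295), the ectodysplasin receptor EDAR (0.40), the sphingosine phosphatase SGPP2 (0.547), the brush border glucosidase MGAM (0.733) and PLCXD3 (0.896). For FXYD6 they were the corticosteroid-binding globulin SERPINA6 (0.638), MGAM (0.904), SGPP2 (0.983), EDAR (0.996) and PLCXD3 (1.24). FXYD2 and FXYD6 lay 1.23 apart. These distances used a prior count of 2, which shrinks differences at low counts, so their order also depends on read depth. EDAR, at 0.40 from FXYD2, had a log2 fold change of -7.01, against -5.43 for FXYD2 and -5.27 for FXYD6. All of these genes were low after deletion. The search fixed this in advance, since FXYD2 and FXYD6 were themselves chosen for their fall. Mean knockout levels of EDAR (0.0194 CPM), MGAM (0.0452), SGPP2 (0.122) and SERPINA6 (0.0861) lay under the filter limit of 0.301 CPM. These genes therefore passed the filter through the parental libraries. UPK1B went from 64.6 to 1.57 CPM (-5.35) and SERPINA6 from 4.97 to 0.0861 CPM (-5.85). Without knockout replicate 2 the value of SERPINA6 was -5.22, and its range over 13 alternatives was -6.36 to -5.22.

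**Figure D4:**
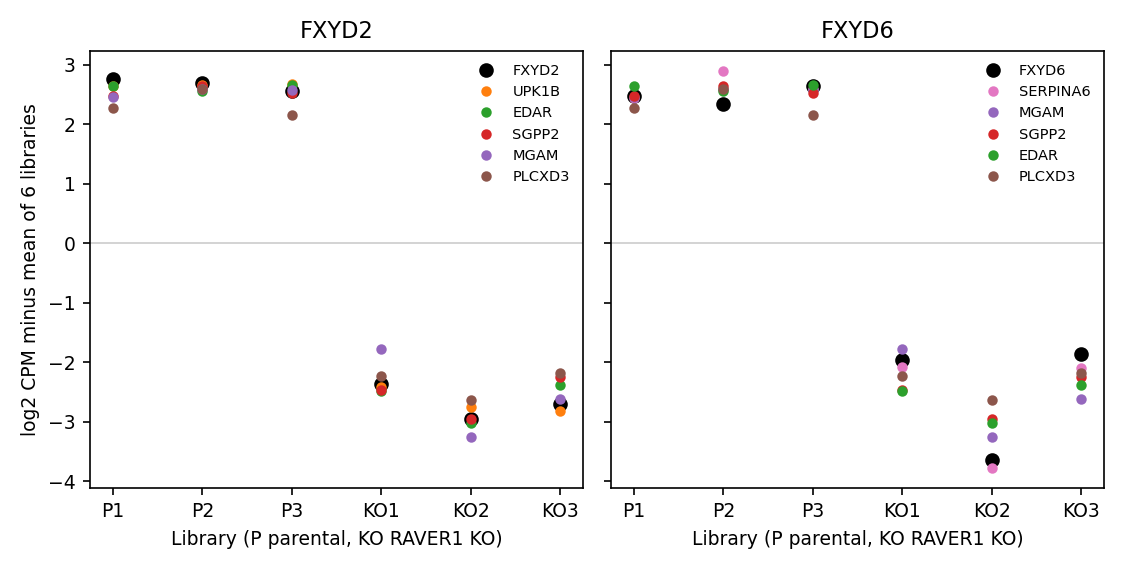
Points give log2 CPM minus the mean of the 6 libraries for FXYD2 (left, black) and FXYD6 (right, black) and for the 5 genes nearest to each (colours), by library, with P for parental and KO for RAVER1 knockout. All plotted genes are high in the 3 parental and low in the 3 knockout libraries, as their choice by nearness to FXYD2 and FXYD6 requires. Knockout replicate 2 of FXYD6, with 1 read, is the lowest FXYD6 point.

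Routes by which sodium enters the cell, the load that the pump removes, moved both ways. Of 15 tested genes given here 4 were lower and 4 higher (53.3% called, against 41.4% of all tested genes), with a median of -0.134. The sodium, potassium and chloride cotransporter SLC12A2 went from 76.6 to 44.1 CPM and fell by 0.79 (edgeR adjusted p 6.34e-09). SLC4A4, a sodium bicarbonate cotransporter, fell by 1.44 and the epithelial sodium channel subunit SCNN1A by 0.54, while the partner subunits SCNN1B and SCNN1G were under the filter. The list also holds potassium chloride cotransporters, which carry no sodium, and of these SLC12A7 fell by 0.33. SLC9A2, a sodium proton exchanger, rose by 2.41, the phosphate carrier SLC20A1 by 0.58 and the sodium calcium exchanger SLC8A1 by 0.80. These 3 lie on chromosome 2, whose 1125 tested genes had a median of 0.42, and the part of that shift in their values was not tested. Without chromosome 2, 4 of 12 were lower and 1 higher, the potassium chloride cotransporter SLC12A4 (0.22).

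Among regulators of epithelial sodium transport, 7 of 19 tested genes were lower and 3 higher (52.6% called, against 41.4% of all tested genes), with a median of -0.00106. SGK1, a kinase that raises sodium transport, rose by 0.40 (edgeR adjusted p 3.86e-05). NEDD4L, the ubiquitin ligase that removes the sodium channel from the membrane, fell by 0.43 (edgeR adjusted p 2.94e-06). The kinase STK39, which activates SLC12A2, rose by 0.60 (edgeR adjusted p 2.5e-07), and it lies on chromosome 2. WNK1 rose by 0.23 and WNK4 fell by 0.88. Of 6 tested other pumps of the P-type family 33.3% were called: the calcium pump ATP2B1 fell by 0.26 and the Golgi pump ATP2C1 rose by 0.16. ATP2C1 was no longer called with upper-quartile scaling (0.12), nor when parental replicate 1 (0.13), parental replicate 3 (0.15) or the third knockout library (0.15) was left out.

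**Figure D5:**
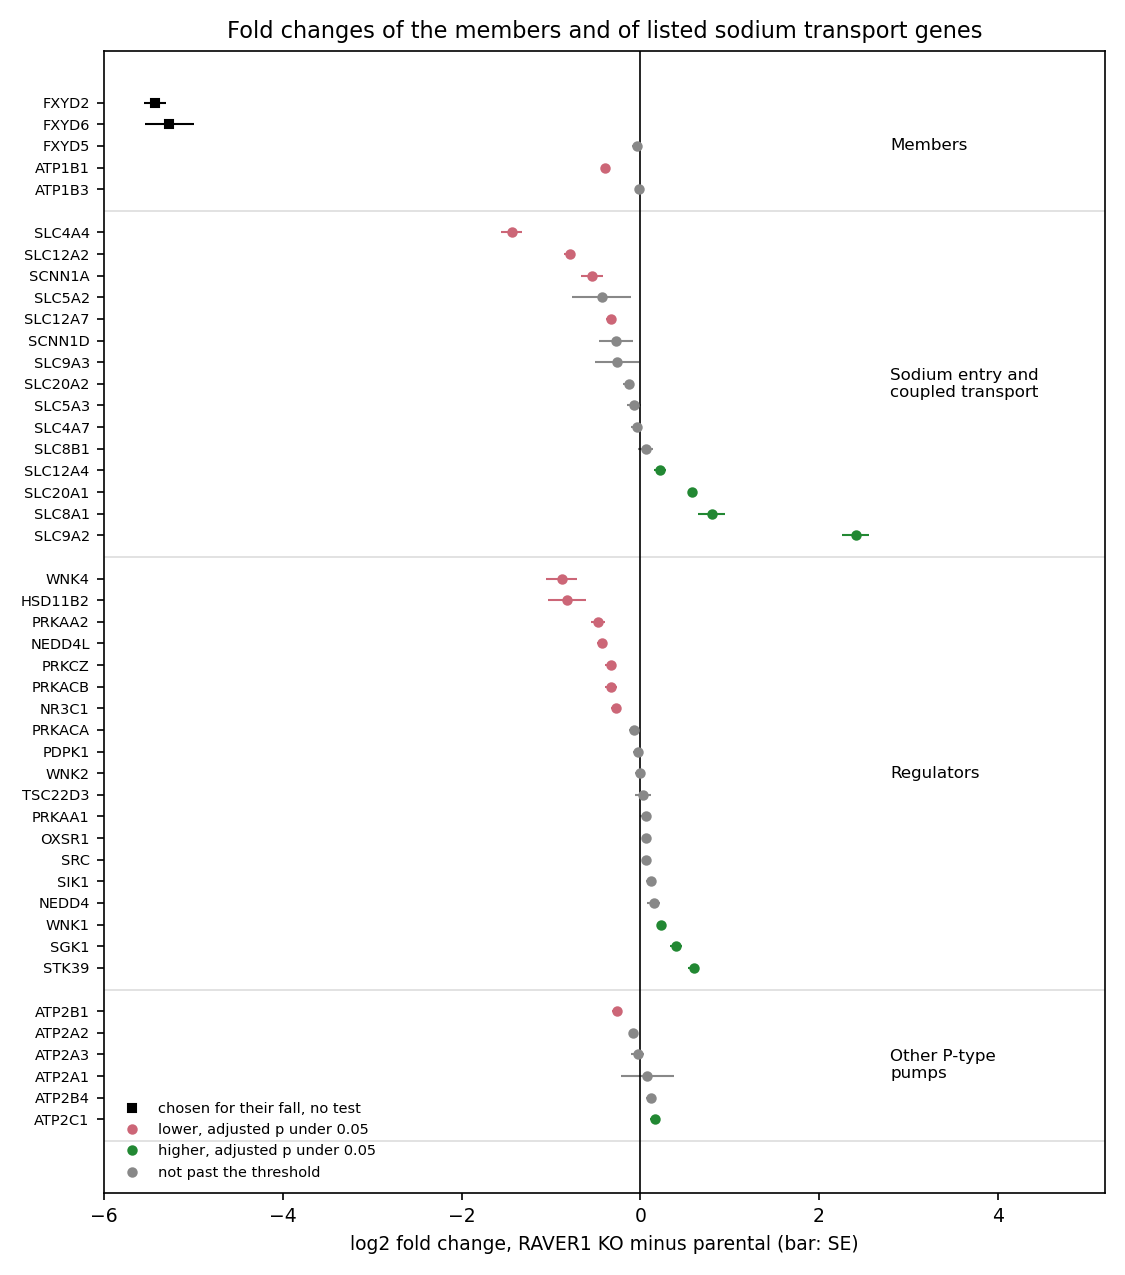
Log2 fold change (knockout minus parental, bar for SE) of the 5 tested members and the tested genes of 3 lists, coloured by the edgeR call; FXYD2 and FXYD6 (black squares) carry no test. FXYD2 (-5.43) and FXYD6 (-5.27) lie far left of the other genes drawn, of which SLC4A4 (-1.44) is the lowest and SLC9A2 (2.41) the highest.

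Markers of epithelial identity moved with the groups. All 6 listed epithelial markers were lower in knockout cells, beside 20.1% of all tested genes. Their summed level was 6614 to 7250 CPM in parental and 3561 to 4118 CPM in knockout libraries. CDH1, which encodes E-cadherin, fell by 2.20. Of 9 alveolar type II markers 2 passed the filter, ABCA3 (-0.36) and NAPSA (-0.24, edgeR adjusted p 0.479), while the surfactant genes SFTPA1 and SFTPA2 were at 0 in all libraries and SFTPD at no more than 0.173 CPM on average in either group. The summed alveolar level was 103 to 110 CPM in parental and 77.2 to 87.5 CPM in knockout libraries, nearly all from ABCA3. Summed levels were 46.81 to 50.03 and 64.64 to 68.63 CPM for 8 fibroblast and muscle markers, carried mainly by COL1A1, and DCN was at 0. Both tested members of that list were higher, beside 21.3% of all tested genes. COL1A1 rose by 0.45 and COL3A1, at 0.143 and 0.779 CPM, by 2.40. COL3A1 passed the filter only through the knockout libraries. It lies on chromosome 2, and the part of that chromosome's shift in its value was not tested. Summed levels were 10 to 11.67 and 9.525 to 10.6 CPM for 6 leukocyte markers, with CD3E at 0, and at most 0.129 CPM for 5 endothelial markers, with PECAM1 at 0. The 5 neural markers summed to 48.34 to 51.17 and 50.04 to 52.02 CPM, mostly from MBP (-0.08, edgeR adjusted p 0.301), with S100B at 0. Of the 4 neural markers tested, RBFOX3 (0.46, edgeR adjusted p 0.00084) and GFAP (0.72, edgeR adjusted p 0.00521) were higher. The part of these marker differences in the values of the pump genes was not tested.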

How the data were processed

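PolyA RNA of 3 parental and 3 RAVER1-deleted A549 libraries was made into libraries with a stranded Illumina kit after TRIzol extraction, per the labels' protocols. For trimming, alignment and counting the authors used cutadapt 2.8, HISAT2 2.1.0, SAMtools 1.10 and featureCounts 2.0.0 on build hg38, per the submitters' processing notes. The deposited values are raw read counts per gene and library with a gene length column. Annotation release, strand setting and treatment of ambiguous reads: not given in the sources used here. Groups and replicate numbers came from the titles.

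The main test was that of edgeR 4.0.16 under R 4.3.3 (filterByExpr, TMM scaling, quasi-likelihood F-test, no covariate), with Benjamini-Hochberg adjustment over 16652 genes and a threshold of 0.05. Each SE is the absolute fold change divided by the root of F. CPM used TMM-scaled library sizes. Log2 CPM for the profile distances had a prior count of 2. Positions and exon overlaps came from GENCODE release 29, joined by gene identifier for 58437 genes. Replicates differed by more than sampling noise (chi-square per degree of freedom 2.41 to 8.86). The fit was also run on counts with known changes, simulated from the means and dispersions of these libraries, and the outcome is not given here. Mitochondrial rows (37) held 0 reads.

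The members and gene lists were chosen with earlier results of these data known. Named genes were the members, RAVER1, the rest of the pump and FXYD families, up to 3 genes per list by adjusted p, exon-sharing genes, tested neighbours within 100 kb and the 5 nearest profiles. Some genes of these sets are not reported here and are left out of list and neighbour counts. SLC4A4, SCNN1A, SLC8A1, SLC12A4, SLC12A7, WNK1, WNK4 and the cell type markers were added after their values were seen. Alternatives were RLE and upper-quartile scaling, 2 other low-count filters, a replicate block, each library left out, DESeq2 1.42.0, limma-voom (limma 3.58.1), other gene lengths and a summed FXYD locus.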

Additional observations from a re-analysis of the deposited data

How the results depend on the processing

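ATP1B1 stayed lower and past the threshold in all 13 alternatives. The difference of FXYD5 became 0.0081 without parental replicate 1, and that of ATP1B3 0.0094 without parental replicate 2 and 0.0027 without knockout replicate 2. Leaving out single libraries gave -0.08 to 0.0081 for FXYD5, -0.05 to 0.0094 for ATP1B3, -5.63 to -5.27 for FXYD2 and -5.62 to -4.72 for FXYD6. Other signs that changed were FXR2, near ATP1B2, with upper-quartile scaling (-0.01) and WRAP53, also near ATP1B2, with RLE (-0.00077) or upper-quartile scaling (-0.03), DESeq2 (-0.00076), and without parental replicate 3 (-0.02) or knockout replicate 1 (-0.04), and its range over left-out libraries was -0.04 to 0.03. None of these values passed the threshold. Of the other named genes, 11 values over 3 genes lost and 7 values over 3 genes gained a call, and 416 kept direction and call. The rise of FXYD5 in the FXYD share, 10.6 percentage points, became 11.3 with the longest transcript as length and 17.9 with no length, through the relative lengths of the genes. This rise follows from the fall for which FXYD2 and FXYD6 were chosen, and it was not tested. Upper-quartile scaling put 3098 genes higher and 3872 lower, against 3543 and 3343. Genes outside chromosome 2, an alternative chosen after seeing the data, gave 2791 higher and 3280 lower. With the replicate number as a block, 4275 genes were higher and 4071 lower, ATP1B1 stood at -0.39 and no member's call changed. Same-numbered libraries had correlations of 0.129, 0.0292 and 0.0142 in their deviations from the group means. The first was above the limit of 0.1 set for pairs and the others were below it. The main fit did not take the numbers as pairs, and these values do not settle whether they are. At 1 to 8 reads per knockout library, the depth of FXYD6 limits the precision of its fold change.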
